A study of Mus musculus with 196 samples.

Results

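The circadian clock genes described here were the listed genes Per1, Per2, Per3, Cry1, Cry2, Arntl (also called Bmal1), Clock, Dbp, Nr1d1 and Nr1d2. Each gene was read from the probe set that named that gene alone and had the highest mean over all arrays. Of the 10 listed genes, 8 had such a probe set, among 18820 genes measured in this way. Dbp was annotated only together with Sphk2, and Nr1d1 only together with Thra, so neither is reported as a measured gene. The probe sets used were 10377439 (Per1), 10356601 (Per2), 10518781 (Per3), 10371400 (Cry1), 10485170 (Cry2), 10556463 (Arntl), 10530733 (Clock) and 10417734 (Nr1d2). Nr1d2 was the only one of the 8 with another probe set of its own, and that one had a mean of 3.22 against 9.35 for the probe set used.

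The study profiled skin of 100 untreated backcross mice aged 8 weeks, the offspring of FVB/N males and of F1 females whose mothers were FVB/N and whose fathers were Mus spretus, so each mouse carries its own mixture of both genomes. Dorsal skin, shaved before freezing, gave 85 arrays labelled as not in anagen (41 females, 44 males) and 14 labelled as anagen, when hair follicles grow (8 females, 6 males). Tail skin gave 97 arrays (48 females, 49 males), and each array held the RNA of 1 mouse. For 96 mice there were arrays of both tissues, 82 with dorsal skin outside anagen and 14 in anagen. The time of day at which the mice were killed is not given in the sources used here.

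The mammalian clock is a transcriptional feedback loop. The proteins encoded by Arntl and Clock form an activator that binds E-boxes and drives transcription of the Per and Cry genes, whose proteins in turn repress the activator. Nr1d1 and Nr1d2 encode REV-ERB receptors, which repress Arntl, while the ROR receptors activate it through the same elements, and Dbp, Tef and Hlf encode related factors that bind D-boxes. Skin has its own clock, and in a tissue sampled through the day Arntl transcripts peak about opposite to those of Per2, Per3, Dbp and Nr1d2.

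To show the elements on which this loop is built, promoter windows were taken from RefSeq (GRCm38.p6), running from 250 bases before to 50 bases after the annotated start. Windows were found for 7 of the 8 measured genes (11 windows); Per2 was not matched. Printed 5′ to 3′ on the strand of the gene, with capitals marking every match on either strand to the E-box CACGTG, the D-box TTATGTAA or the receptor element AGGTCA, are 4 of the clock genes, and Tef and Ciart, clock genes outside the list that were among the most similar to them across mice.
Per1, chr11:69098699-69098998, + strand: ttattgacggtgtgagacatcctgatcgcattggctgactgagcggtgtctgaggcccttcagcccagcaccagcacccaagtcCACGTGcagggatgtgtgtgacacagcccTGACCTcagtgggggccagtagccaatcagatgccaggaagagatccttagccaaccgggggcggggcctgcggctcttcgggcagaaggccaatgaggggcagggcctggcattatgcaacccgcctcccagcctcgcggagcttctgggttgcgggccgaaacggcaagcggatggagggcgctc
Per3, chr4:151044616-151044915, - strand: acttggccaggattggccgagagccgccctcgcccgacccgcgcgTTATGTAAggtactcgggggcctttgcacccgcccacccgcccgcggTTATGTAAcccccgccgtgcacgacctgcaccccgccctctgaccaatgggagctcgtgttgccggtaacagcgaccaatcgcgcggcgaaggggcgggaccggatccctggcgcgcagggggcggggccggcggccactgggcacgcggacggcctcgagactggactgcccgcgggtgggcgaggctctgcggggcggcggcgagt
Cry1, chr10:85185005-85185304, - strand: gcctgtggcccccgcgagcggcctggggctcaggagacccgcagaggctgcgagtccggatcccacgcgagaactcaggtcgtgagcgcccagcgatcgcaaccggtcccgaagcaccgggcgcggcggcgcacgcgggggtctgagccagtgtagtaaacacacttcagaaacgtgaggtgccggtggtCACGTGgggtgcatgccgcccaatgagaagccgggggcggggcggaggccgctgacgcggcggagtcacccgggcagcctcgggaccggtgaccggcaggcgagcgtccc
Arntl, chr7:113207261-113207560, + strand: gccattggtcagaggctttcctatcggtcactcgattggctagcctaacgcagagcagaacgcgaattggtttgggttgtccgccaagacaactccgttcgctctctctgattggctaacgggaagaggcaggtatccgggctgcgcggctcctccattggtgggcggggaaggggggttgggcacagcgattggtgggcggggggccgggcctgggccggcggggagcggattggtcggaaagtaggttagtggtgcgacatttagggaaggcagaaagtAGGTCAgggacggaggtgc
Tef, chr15:81802423-81802722, + strand: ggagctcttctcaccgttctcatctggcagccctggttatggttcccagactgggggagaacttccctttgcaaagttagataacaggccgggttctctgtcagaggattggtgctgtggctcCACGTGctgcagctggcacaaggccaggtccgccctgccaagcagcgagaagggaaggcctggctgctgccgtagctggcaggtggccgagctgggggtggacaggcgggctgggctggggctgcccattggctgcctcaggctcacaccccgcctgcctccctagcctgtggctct
Ciart, chr3:95882179-95882478, - strand: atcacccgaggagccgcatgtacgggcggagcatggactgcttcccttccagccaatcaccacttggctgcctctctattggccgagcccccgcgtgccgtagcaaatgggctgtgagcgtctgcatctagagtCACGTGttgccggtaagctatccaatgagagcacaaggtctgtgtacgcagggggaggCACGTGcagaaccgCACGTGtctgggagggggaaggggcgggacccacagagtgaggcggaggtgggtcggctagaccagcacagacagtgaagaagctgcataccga

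An E-box began 166 bases before the start of Per1, 60 bases before that of Cry1 and 127 bases before that of Tef. Ciart, which encodes a repressor of the Arntl and Clock activator, held 3 E-boxes, at 116, 58 and 44 bases before its start. Per3 held the D-box at 205 and at 158 bases before its start. The receptor element lay downstream of the start of Arntl and 137 bases before that of Per1, and was also found in windows of Nr1d2 and Clock. No match to these letters was found in the window of Cry2, nor in those of Dbp, Nr1d1, Npas2 and Hlf, which were also searched. Window 2 of Per1, window 1 of Arntl and windows 1 and 2 of Clock held no match either. Every printed window holds a match, so the printed windows do not show how often the letters were absent. Over all 32851 promoter windows of this length, 7.15% held CACGTG, 0.938% held TTATGTAA and 16.3% held AGGTCA on either strand. In the printed windows the marked matches did not overlap one another. These matches describe letters in a window and are not measured binding sites.

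Values are deposited log2 expression values, so a difference of 1 is a 2-fold difference, and levels are compared within a gene only. The tissue labels were checked on positional and skin genes. Hoxc8, a Hox gene of the trunk, was at 8.86 in non-anagen dorsal skin and 6.14 in tail skin, and Hoxd11, a Hox gene of the tail end, at 5.04 and 9.55. Krt5 and Krt14, which mark basal keratinocytes, lay between 11.63 and 12.39 in every group. The labels put dorsal arrays in batches 1 and 2 and tail arrays in batches 3 and 4, and the effects of tissue and batch cannot be told apart. The number of arrays limits the precision.

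Most clock genes, like most genes with a mean above the median of gene means, were called higher in tail than in non-anagen dorsal skin. The largest difference among the 8 clock genes was that of Cry1. In a limma fit over all genes with sex as a covariate, 6 of the 8 genes were called higher in tail skin (adjusted p under 0.05), Nr1d2 was called lower and Per1 was not called. Of all genes, 43.7% were called higher and 43.4% lower, so a call in this comparison is common. A difference of at least 0.5 was reached by 3 of the 8 genes, all higher in tail (Cry1, Clock and Cry2), against 16.3% of all genes higher and 8.88% lower by that much. With all array medians set equal, or after quantile normalization, only Cry1 reached that size (1 of the 8 genes). The median difference of the 8 genes was 0.44, against -4.87e-04 over all genes. All 8 lie among the 9409 genes with a mean above the median of gene means, and of those genes 65.5% were called higher and 22.9% lower, with a median difference of 0.23.

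Cry1 and Cry2 encode the cryptochromes, the repressors that bind the activator directly. In non-anagen dorsal skin Cry1 had a lowest value of 5.30, a median of 6.44 and a highest value of 7.93, and in tail skin 7.11, 7.83 and 8.55. The ranges overlapped in part, with 37 of 97 tail arrays above the highest dorsal array and 70 of 85 dorsal arrays below the lowest tail array. Cry1 was 1.29 higher in tail (SE 0.058, 2.44-fold, limma adjusted p = 1.27e-54). Cry2 ran from 7.24 through a median of 8.08 to 8.75 in dorsal skin and from 8.01 through 8.62 to 9.22 in tail skin. Its ranges overlapped more, and it was 0.55 higher in tail (SE 0.049, 1.46-fold, limma adjusted p = 3.52e-22), or 0.33 higher after quantile normalization (limma adjusted p = 2.14e-11).

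Clock and Arntl encode the activator. Clock varied little within each tissue, from 8.15 through a median of 8.94 to 9.50 in dorsal skin and from 8.94 through 9.58 to 9.96 in tail skin. Of the tail arrays, 65 of 97 lay above the highest dorsal array, and Clock was 0.62 higher in tail (SE 0.031, 1.54-fold, limma adjusted p = 5.55e-49). Arntl ran from 6.58 through 7.92 to 8.57 in dorsal skin and from 7.48 through 8.31 to 8.92 in tail skin. It was 0.49 higher in tail (SE 0.059, 1.40-fold, limma adjusted p = 4.27e-14), with 23 tail arrays above every dorsal array. After quantile normalization it was 0.27 higher (limma adjusted p = 7.34e-06).

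The Per genes, which encode the period repressors, spread so widely within dorsal skin that the tissues overlapped almost wholly. Per2 ran from 5.29 through a median of 6.66 to 8.47 in dorsal skin, a 9.06-fold range, and from 5.82 through 7.14 to 8.23 in tail skin. No tail array exceeded the highest dorsal array, and Per2 was 0.35 higher in tail (SE 0.10, limma adjusted p = 6.45e-04). Per3 ran from 6.44 through 8.00 to 9.29 in dorsal skin and from 6.99 through 8.49 to 9.15 in tail skin. Its dorsal SD was 0.71 against 0.33 in tail, and it was 0.39 higher in tail (SE 0.081, limma adjusted p = 4.98e-06). Per1 ran from 7.43 through 9.07 to 10.01 in dorsal skin and from 8.15 through 9.08 to 10.03 in tail skin. Its difference of 0.13 (SE 0.077, limma adjusted p = 0.0949) was not called, its 95% interval was -0.02 to 0.28, and its sign turned with all array medians set equal (-0.0030) or after quantile normalization (-0.075). Per2 was 0.22 higher with array medians set equal (limma adjusted p = 0.0308) and lost its call under quantile normalization (0.14, limma adjusted p = 0.183). Per3 was 0.25 (limma adjusted p = 0.00194) and 0.16 (limma adjusted p = 0.0484) higher under the same settings.

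Nr1d2, the REV-ERB beta receptor gene, ran from 8.74 through 9.43 to 9.94 in dorsal skin and from 8.80 through 9.35 to 9.73 in tail skin. These ranges nearly coincide, and Nr1d2 was 0.09 lower in tail (-0.09, SE 0.039, limma adjusted p = 0.0333). The difference was larger with array medians set equal (-0.22, limma adjusted p = 5.33e-08), after quantile normalization (-0.28, limma adjusted p = 2.36e-11) and with the mean of both its probe sets (-0.24, limma adjusted p = 7.79e-14). With the inner root sheath markers' mean as a covariate the difference turned to 0.24 (limma adjusted p = 0.0135), although the tissues hardly share values of that mean. With the mean of the skeletal muscle markers the difference was -0.083 and no longer called (limma adjusted p = 0.0960).

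The tissues also differed in cell type markers. All 7 inner root sheath markers were called higher in tail skin, where their mean ranged from 6.04 to 10.80 against 4.71 to 6.12 in non-anagen dorsal skin. All 6 hair shaft, all 7 measured mitotic and all 5 melanocyte markers were also called higher, while all 8 skeletal muscle markers (array means of 5.10 to 11.51 in dorsal and 4.82 to 9.04 in tail skin), all 5 smooth muscle and all 4 measured T cell markers were called lower. With the inner root sheath mean as a covariate Cry1 was 1.54 and Clock 0.78 higher in tail, Cry2 0.98 and Per3 0.996 higher, and Per2, at 0.50, lost its call (limma adjusted p = 0.0625). Tail and non-anagen dorsal skin hardly share values of this mean, so these adjusted differences reach beyond the range that both tissues cover. With the skeletal muscle mean Cry1 was 1.23 and Clock 0.60 higher. In whole skin, fewer cells of a type and less RNA per cell cannot be told apart.

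**Figure D1:**
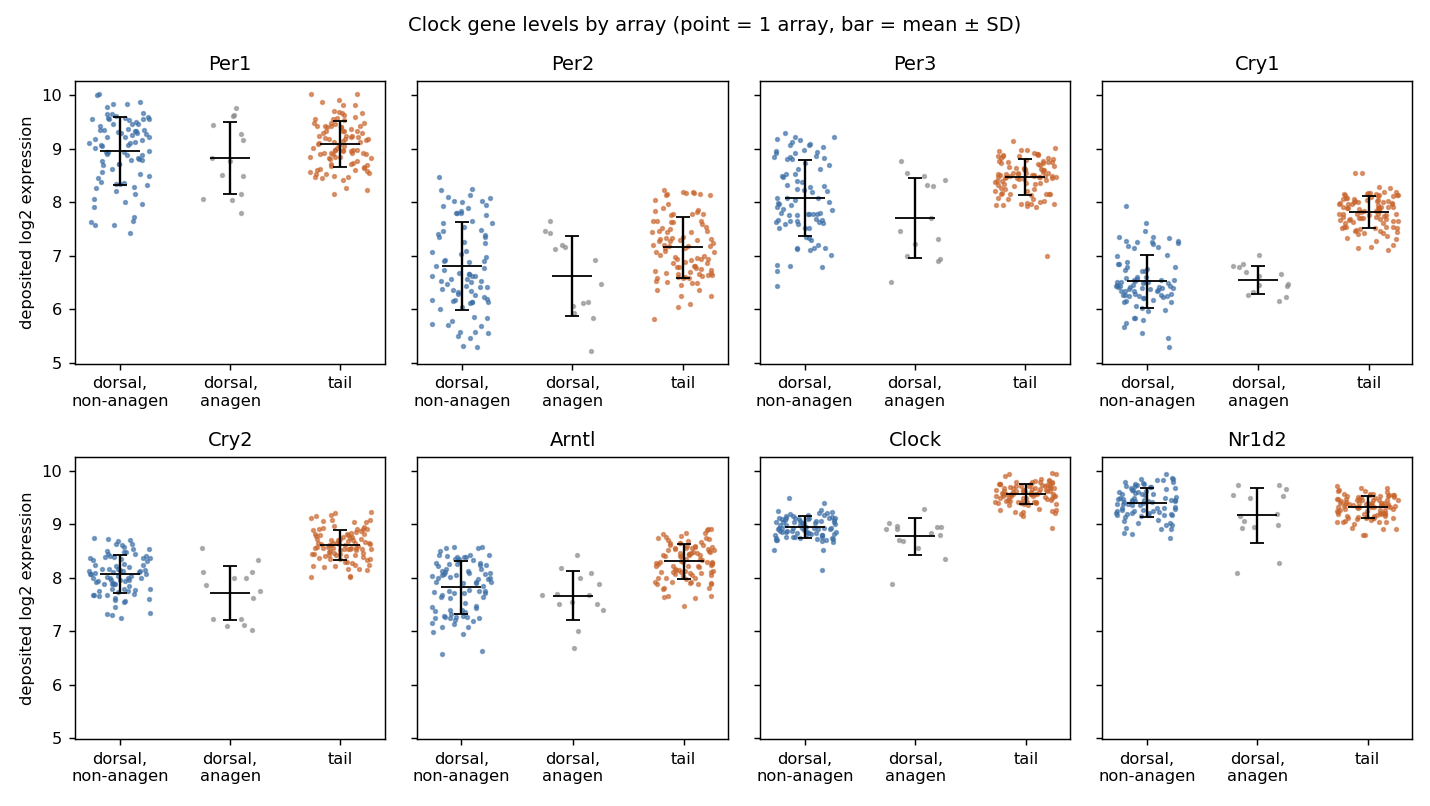
Deposited log2 expression (vertical axis) of the 8 clock genes in non-anagen dorsal (85 arrays), anagen dorsal (14) and tail skin (97); points are arrays and bars the mean ± SD. The Cry1 and Clock clouds sit highest in tail, whereas Per1, Per2 and Nr1d2 overlap almost wholly between tissues and Per2 and Per3 spread more widely in dorsal skin.

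The same contrast within single mice used the 82 mice with tail and non-anagen dorsal skin, which takes the mouse as a fixed block. Cry1 and Clock were higher in tail in 82 of 82 mice. The smallest difference of a mouse was 0.074 for Cry1 and 0.036 for Clock, and the largest 2.62 and 1.24. Cry2 was higher in tail in 76 mice, Arntl in 74, Per3 in 61 and Per2 in 56. Nr1d2 was lower in tail in 54 mice and higher in 28. Per1 was divided, with 42 mice higher and 40 lower and a mean difference of 0.084 (SE 0.055, limma adjusted p = 0.143). Mice went far in either direction for the Per genes, from -1.29 to 2.05 for Per2.

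**Figure D2:**
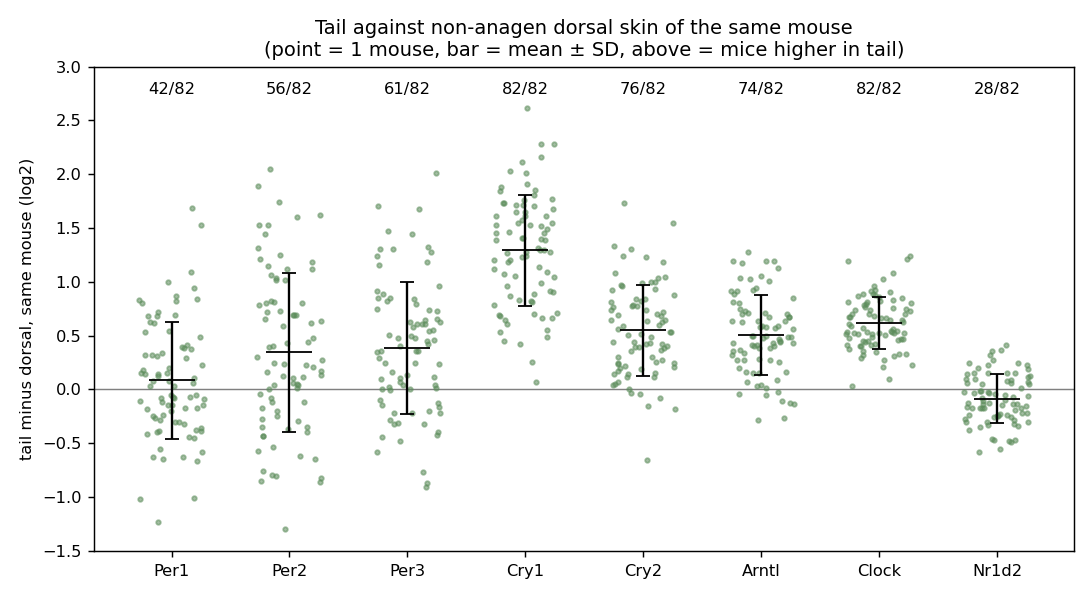
Tail minus non-anagen dorsal skin of the same mouse on the log2 scale (vertical axis) for each clock gene; points are the 82 mice, bars the mean ± SD, and the fraction above each gene is the number of mice with the higher value in tail. Every Cry1 and Clock point lies above 0, whereas Per1 points lie about equally on both sides (42 of 82 above).

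Tail skin was compared with the 14 anagen dorsal arrays in the same model, which shares its tail arrays with the comparison above. Of the 8 genes, 7 were called higher in tail and none lower, with 6 at 0.5 or more (4 under either other scaling). Of all genes 38.8% were called higher and 34.9% lower, and 16.2% and 8.45% reached that size. Among the 9409 genes above the median of gene means, which include all 8, 61.5% were called higher and 16.8% lower. Their median difference was 0.25. Cry1 in anagen skin ran from 6.16 through 6.55 to 7.01, below the lowest tail array, and was 1.27 higher in tail (SE 0.11, limma adjusted p = 3.41e-22). Cry2 was 0.90 higher (SE 0.095, limma adjusted p = 7.54e-17), Clock 0.79, Per3 0.78, Arntl 0.63 and Per2 0.56. Nr1d2 was 0.16 higher (SE 0.075, limma adjusted p = 0.0441). That call was lost and the sign turned under quantile normalization (-0.038), with the mean of both Nr1d2 probe sets (-0.069) and when the 5 arrays that correlated least with their group were left out (-0.0080). Per1 was 0.29 higher and not called (SE 0.15, limma adjusted p = 0.0699), but was called within the 14 mice (0.38, limma adjusted p = 0.0355). Nr1d2 was not called within these mice (0.13, limma adjusted p = 0.414).

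Among the dorsal arrays, anagen and non-anagen skin could be told apart in 1 of the 8 genes. Cry2 ran from 7.03 through 7.82 to 8.57 in anagen skin, with 5 of 14 arrays below every non-anagen array, and was lower by 0.37 (-0.37, SE 0.11, limma adjusted p = 0.0186). Of all genes, 4.11% were called higher and 3.59% lower in anagen. The Cry2 call did not hold when the 5 arrays least like their group, 3 of them anagen arrays, were left out (-0.21, limma adjusted p = 0.495). It also passed in only 9 of the 14 fits that left out 1 anagen array each, and was lost without mouse 1013, 1039, 1056, 1080 or 1083, with differences over all 14 fits between -0.43 and -0.32 and adjusted p-values between 0.00414 and 0.0905. For the other genes the differences were -0.41 (Per3, limma adjusted p = 0.212), -0.25 (Nr1d2, 0.0832), -0.22 (Per2, 0.642), -0.18 (Clock, 0.0973), -0.16 (Per1, 0.670), -0.14 (Arntl, 0.638) and 0.0039 (Cry1, 0.992). Cry1 and Per1 changed sign without the 5 arrays (-0.024 and 0.042). Across the 3 groups the level of Cry1, Arntl, Clock, Per2 and Per3 was highest in tail, and no difference between the dorsal groups was called for these genes. For Cry2 the order was tail, non-anagen and anagen, each step called.

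In dorsal skin females had more Per transcript than males and less Arntl. Per2 ran from 5.69 through a median of 7.25 to 8.25 in the 41 females and from 5.29 through 6.43 to 8.47 in the 44 males. It was 0.66 higher in females (SE 0.16, 1.58-fold, limma adjusted p = 0.00322), with overlapping ranges. Per3 ran from 6.72 through 8.50 to 9.29 in females and from 6.44 through 7.78 to 9.22 in males, and was 0.56 higher in females (SE 0.14, limma adjusted p = 0.00407). Per1 ran from 8.145 through 9.30 to 10.01 in females and from 7.43 through 8.86 to 10.001 in males, and was 0.46 higher in females (SE 0.13, limma adjusted p = 0.00826). Arntl was lower in females by 0.30 (-0.30, SE 0.10, limma adjusted p = 0.0361). The 3 genes called higher and 1 called lower compare with 6.19% and 6.11% of all genes. All 4 calls were kept in batch 1 alone. The other 4 genes were not called, at 0.27 for Cry1 (limma adjusted p = 0.0662), 0.16 for Cry2, 0.14 for Nr1d2 and -0.07 for Clock. All 5 endothelial, 4 of 5 smooth muscle and 3 of 6 fibroblast markers were called lower in female dorsal skin, and their part in these differences was not tested. Sex was also unevenly spread over the mouse numbers. Mice 1025 to 1032 were mostly female with high Per2, which was 8.02 in male 1028 as well. Mice 1033 to 1040 were mostly male with low Per2, which was 5.69 and 6.29 in females 1035 and 1036 as well. The part of mouse number in the sex differences, and in their contrast with tail skin below, was not tested.

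In tail skin no clock gene was called between the sexes, against 1.64% of all genes higher and 1.2% lower in females; at an unadjusted p under 0.05 limma found 3 (Arntl, Clock and Nr1d2). Per2 was 0.095 higher in females (SE 0.12, limma adjusted p = 0.726), Per3 differed by 7.44e-04 (SE 0.068, limma adjusted p = 0.998) and Arntl by -0.21 (SE 0.065, limma adjusted p = 0.0574). Arntl was called with all array medians set equal (limma adjusted p = 0.0367) and when only genes above the median of gene means were tested (0.0476). The difference between the tissues was tested as an interaction, and 1 of the 8 genes was called, against 4.46% of all genes in one direction and 4.63% in the other. For Per3 the female minus male difference was smaller in tail by 0.56 on the log2 scale (-0.56, SE 0.15, limma adjusted p = 0.0105). For Per2 the same contrast was -0.56 (SE 0.20, limma adjusted p = 0.0557), and it passed with the mouse as a random block (limma adjusted p = 0.0378) and in batches 1 and 4 alone (0.0423). For Arntl it was 0.09 (SE 0.12, limma adjusted p = 0.694).

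**Figure D3:**
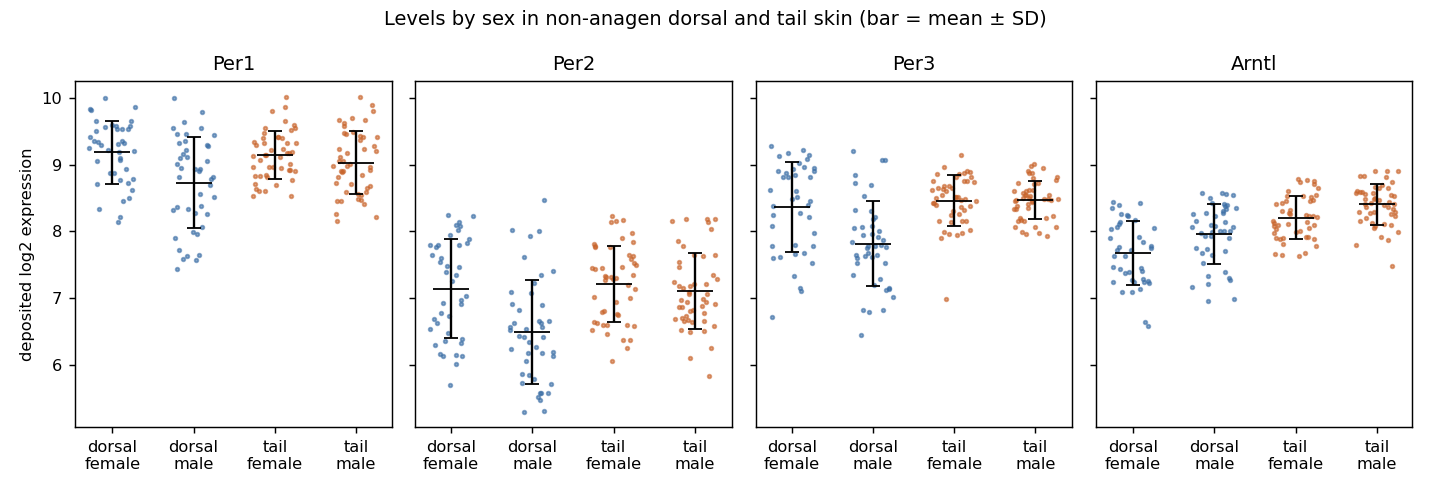
Deposited log2 expression (vertical axis) of Per1, Per2, Per3 and Arntl in females and males of non-anagen dorsal (41 and 44 arrays) and tail skin (48 and 49); points are arrays and bars the mean ± SD. The dorsal female means of the Per genes lie above the male means, by 0.66 for Per2, while in tail skin the Per means of both sexes lie close together. The female Arntl mean lies below the male mean in both tissues (8.21 and 8.41 in tail skin, a difference not called).

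Of 20 other clock genes measured, 14 were called higher and 5 lower in tail than in non-anagen dorsal skin, with a median difference of 0.35. Over all genes 43.7% were called higher and 43.4% lower, and among genes above the median of gene means 65.5% and 22.9%. Bhlhe40, a repressor of the same activator, differed most, from 5.79 through 6.73 to 7.42 in dorsal skin and from 8.26 through 8.95 to 9.35 in tail skin, with no overlap (2.23 higher, SE 0.045, limma adjusted p = 2.86e-110). Npas2, which can take the place of Clock in the activator, was 0.81 higher, and Rora, an activator of Arntl, 0.78 higher. Ciart was 0.67, Hlf 0.33 and Tef 0.23 higher. Wee1, a cell cycle kinase gene under clock control, was lower by 0.51 (-0.51), Arntl2 by 0.34 (-0.34), Nampt by 0.33 (-0.33), Klf9 by 0.28 (-0.28) and Btrc by 0.21 (-0.21). Rorb, at 0.04, was not called. In female dorsal skin Wee1 was 0.51 higher (SE 0.096, limma adjusted p = 7.58e-05), and the contrast of its sex difference between the tissues was -0.51 (limma adjusted p = 9.79e-04).

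The mice differed widely in the Per genes. Among all genes in non-anagen dorsal skin the SD of Per2 stood at the 98.9th percentile, that of Per3 at the 98.1st, that of Per1 at the 97.3rd and that of Clock at the 9.92nd. In tail skin Per2 stood at the 97.6th and Clock at the 35.5th. With arrays ranked by level, the largest gap between neighbours was 0.521 SD (Arntl in dorsal skin), so no gene had levels parted by a wide gap. Groups with overlapping levels leave no such gap and cannot be seen in this way. That check does not see the order of the mouse numbers. Non-anagen dorsal Per2 lay between 7.41 and 8.47 in mice 1021 to 1032 and between 5.50 and 6.435 in mice 1033 to 1040. The p-values given here take different mice as independent, and likeness of mice with neighbouring numbers was not tested.

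Across mice the clock genes varied together, with positive correlations among Per, Cry and Nr1d2 and negative ones between these and Arntl or Clock in every called pair. Values were adjusted for sex and batch, all 28 pairs were tested in each tissue (56 relations), and a pair was called when each gene passed in the limma fit of all genes on the other. In non-anagen dorsal skin 23 of 28 pairs were called, 15 with a positive and 8 with a negative r. Per2 and Per3 had the largest r of 0.89 (rho 0.89, both permutation p = 1e-05, larger limma adjusted p = 8.50e-26; 1e-05 is the smallest p these permutations can give). Per3 had r = 0.84 with Cry2 and 0.80 with Nr1d2, and Per2 had r = 0.78 with Nr1d2 and 0.75 with Cry2 (rho 0.82, 0.79, 0.77 and 0.73, all permutation p = 1e-05). Arntl ran opposite to Nr1d2 (r = -0.73, rho -0.76), to Per2 (r = -0.69, rho -0.68) and to Per3 (r = -0.60, rho -0.61), each with permutation p = 1e-05. Arntl and Clock had a positive r of 0.41 (rho 0.38, permutation p = 6.00e-05 and 3.30e-04, larger limma adjusted p = 0.0322). The pairs not called were Per1 with Arntl and Clock, and Cry1 with Arntl, Clock and Nr1d2, with r between -0.31 and 0.36.

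Without the 2 arrays farthest from the median of the first gene every r kept its sign in both tissues. It moved by at most 0.071 in dorsal and 0.091 in tail skin. Tail arrays of mice 1000 to 1007 lay together at high levels. They held Per1 between 9.43 and 10.025, Per2 between 7.78 and 8.23 and Cry2 between 8.91 and 9.22. The tail medians were 9.08, 7.14 and 8.62. Leaving out 2 arrays cannot show how far the tail r rest on these mice, and their part was not tested. All 23 called dorsal pairs had the same sign in the 10 arrays of dorsal batch 2, where Per3 and Cry2 had r = 0.95 and Per1 and Nr1d2 0.082. In dorsal batch 1 alone no r moved by more than 0.057, and in tail batch 4 alone by no more than 0.013; tail batch 3 held 3 arrays, too few for a value. The first principal component of the 8 genes held 61.1% of their variance in dorsal skin, with Per2 (0.43), Per3 (0.43), Nr1d2 (0.39), Cry2 (0.38), Per1 (0.30) and Cry1 (0.28) weighted against Arntl (-0.31) and Clock (-0.27).

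The number of pairs called must be read against how many genes of the array went with each clock gene. In dorsal skin the fit on Cry2 called 36.3% of all genes, that on Per3 16.3%, on Cry1 15.2%, on Per1 13.3% and on Arntl 7.62%. The fit on Per2 called 3.36%, that on Nr1d2 0.818% and that on Clock 0.446%. In tail skin the fit on Clock called 41.2%, that on Cry1 27%, on Per3 26%, on Arntl 20.9%, on Cry2 18.8% and on Per2 13.2%, and those on Nr1d2 and Per1 called 4.58% and 1.46%. The pairs of Per2, Nr1d2 and Clock in dorsal skin and of Per1 and Nr1d2 in tail skin therefore stood against the sparsest backgrounds.

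In tail skin 13 of 28 pairs were called, 10 positive and 3 negative, and each was also called in dorsal skin with the same sign. Per2 and Cry2 had the largest r of 0.78 (rho 0.80), followed by Per1 and Cry2 at 0.74 (rho 0.72) and Per2 and Cry1 at 0.72 (rho 0.74), all with permutation p = 1e-05. Arntl and Nr1d2 had r = -0.66 (rho -0.68) and Clock and Nr1d2 r = -0.48 (rho -0.50), with permutation p = 1e-05. Per3 and Nr1d2 had r = 0.62 (rho 0.67, permutation p = 1e-05), whereas Per1 and Per3 had r = 0.073 (rho 0.13, permutation p = 0.480 and 0.194). The first component held 41.6% of the variance and the second 27.6%. On the second, Nr1d2 (0.48) and Per3 (0.23) stood against Arntl (-0.48), Clock (-0.42), Cry1 (-0.40), Cry2 (-0.27), Per2 (-0.25) and Per1 (-0.15).

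The slope of 1 pair, Per2 and Nr1d2, was called different between the tissues in both directions of the fit. Nr1d2 rose by 0.27 for each unit of Per2 in dorsal skin and by 0.058 in tail skin, a difference of -0.22 (SE 0.043, limma adjusted p = 0.00272). In the other direction, Per2 rose by 2.19 per unit of Nr1d2 in dorsal and by 0.51 in tail skin (limma adjusted p = 0.00841). Of all genes, 0.266% had a different slope on Per2 and 0.595% on Nr1d2. In r, the pair stood at 0.78 in dorsal skin and 0.17 in tail skin (rho 0.20, permutation p = 0.0916 and 0.0519). Tail arrays of mice 1000 to 1007 had high Per2 (7.78 to 8.23) with Nr1d2 between 8.91 and 9.26, below its tail median of 9.35. The part of these mice in the tail slope and r was not tested. Another 9 pairs passed in 1 direction alone. Per3 rose by 0.77 per unit of Per2 in dorsal skin and by 0.20 in tail skin (limma adjusted p = 5.67e-09), whereas the slope of Per2 on Per3 was 1.02 and 0.58 (limma adjusted p = 0.103). Per3 rose by 1.58 and 0.45 per unit of Cry2 (limma adjusted p = 2.34e-07), whereas Cry2 rose by 0.45 and 0.31 per unit of Per3 (limma adjusted p = 0.331).

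**Figure D4:**
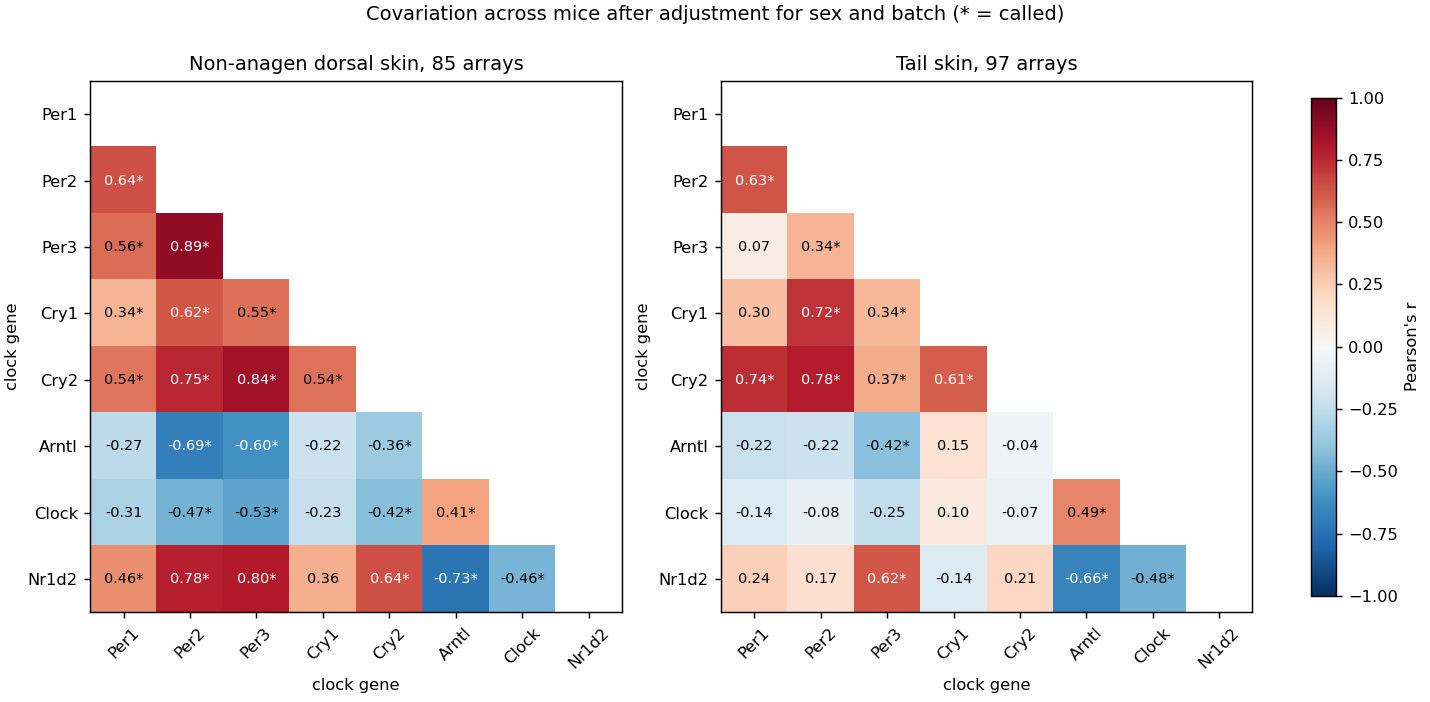
Pearson's r (colour and number) between the 8 clock genes across mice in non-anagen dorsal (85 arrays) and tail skin (97 arrays), after adjustment for sex and batch; an asterisk marks a pair called in both directions. The block of positive r among Per, Cry and Nr1d2 against Arntl and Clock fills most of the dorsal panel (23 of 28 called), whereas in tail skin 13 are called.

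In the 14 anagen arrays, adjusted for sex, Per3 and Cry2 had r = 0.96 (rho 0.96, permutation p = 1e-05), and 0.93 without the 3 anagen arrays least like their group. Clock and Nr1d2 had r = 0.75 there (rho 0.45, permutation p = 0.00413 and 0.105), against -0.46 in non-anagen skin. That value rested on a few arrays, since it was 0.20 without the 2 farthest arrays and 0.14 without the 3 least like their group.

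Outside the 8 genes themselves, the genes whose levels most resembled theirs were often other clock genes. They were ranked by the size of r, with the 8 genes left out, among the 9092 genes in dorsal and 9575 in tail skin with a mean above the median, and are a description without a test of their rank. Tef was the most similar of these genes to Per3 in both tissues (r = 0.91 in 85 dorsal and 0.87 in 97 tail arrays). It was also the most similar to Nr1d2 in both (0.77 and 0.65) and to Per2 in dorsal skin (0.85). Wee1 was the most similar to Per1 in dorsal skin (0.83) and to Per2 in tail skin (0.77). Npas2 was the most similar to Arntl in tail skin (0.80) and the second most similar in dorsal skin (0.68, after Cxcl14 at 0.75). Ciart was the second for Per2 in dorsal skin (0.74). Slc6a6, a taurine transporter gene, led for Cry2 in dorsal skin (0.84), and Sik1, a salt-inducible kinase gene, for Per1 in tail skin (0.72). For Clock the first was not a listed clock gene, Cse1l in dorsal (0.63) and Pwp1 in tail skin (0.70), nor was it for Cry1 (Stk38 at 0.64 and Tapt1 at 0.70), although in tail skin Cry1 had a larger r with Per2, one of the 8 genes. Of the 20 other clock genes, Per3 was called with 10 positively and 1 negatively in dorsal skin (16.3% of all genes in either direction) and with 7 and 2 in tail skin (26%). Arntl was called with 2 positively and 7 negatively in dorsal skin (7.62%) and with 1 and 5 in tail skin (20.9%). Cry2 was called with the most, 13 and 2 in dorsal skin (36.3%) and 10 and 0 in tail skin (18.8%).

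Per1 is also a target of the glucocorticoid receptor, and genes that respond to glucocorticoids were set beside it. Of the 12 such genes other than Per1 itself, 9 were called with a positive r in dorsal skin and 7 in tail skin and none with a negative r, against 13.3% and 1.46% of all genes called in either direction. Their median r was 0.50 and 0.43, against 0.0011 and -0.0016 over all genes. Sgk1 (0.72 and 0.60), Tsc22d3 (0.70 and 0.60), Errfi1 (0.57 and 0.60), Klf9 (0.51 and 0.65), Zbtb16 (0.56 and 0.41) and Dusp1 (0.33 and 0.57) were called in both tissues. Of these, Klf9 is also counted among the other clock genes above. Pdk4 was called in tail skin alone (0.45), and Fkbp5 (0.48), Mt1 (0.52) and Mt2 (0.37) in dorsal skin alone. In tail skin Cry2 was called with 8 of the 12 positively and 1 negatively (median r 0.40, against 18.8% of all genes). Per2 was called there with 6 and 1 (0.32, against 13.2%). In dorsal skin both were called with 5 positively and 0 negatively (median r 0.20 for Cry2 and 0.24 for Per2). The dorsal fit on Cry2 called 36.3% of all genes and that on Per2 3.36%, so the dorsal Cry2 count lies near its background. With Arntl the list had a median r of -0.15 in dorsal and -0.017 in tail skin. Of 14 immediate early genes, which include Dusp1 as well, 6 were called with Per1 in each tissue, with median r of 0.22 and 0.31. The shares of all genes called with Per1 were 13.3% in dorsal and 1.46% in tail skin.

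Cell composition varied among the arrays too. The largest correlations between a clock gene and the mean of a marker list were 0.53 (Cry2 with hair follicle stem cell markers) and 0.47 (Arntl with epidermal keratinocyte markers), both in dorsal skin, and their part in the pair relations was tested only by adding 3 list means (skeletal muscle, white adipocyte and inner root sheath) as covariates. With these, 23 dorsal and 14 tail pairs were called.

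The clock genes of a mouse's dorsal skin also went with those of its tail. Over the 82 mice with both tissues, each gene's dorsal level was compared with the tail level of every gene, after adjustment for sex and batch. Of the 8 genes, 5 were called against themselves: Arntl (r = 0.64, rho 0.61), Nr1d2 (0.58, rho 0.59), Per3 (0.58, rho 0.62), Per1 (0.53, rho 0.53) and Per2 (0.49, rho 0.50), each with permutation p = 1e-05. Their limma adjusted p-values over all tail genes were 2.94e-06, 9.37e-05, 3.65e-05, 0.00216 and 0.00443. Without the 2 mice farthest from the dorsal median these r were 0.60, 0.58, 0.59, 0.48 and 0.45. Cry1 (r = 0.27, rho 0.24, permutation p = 0.0153 and 0.0321), Clock (0.22, rho 0.20, permutation p = 0.0489 and 0.0767) and Cry2 (0.18, rho 0.19, permutation p = 0.113 and 0.0824) were not called. The median r of a gene with itself was 0.081 over all 18820 genes, and Arntl stood at the 99.4th percentile, Nr1d2 and Per3 at the 99th, Per1 at the 98.4th and Per2 at the 97.8th.

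Relations between different clock genes crossed the tissues as well, with 11 of 56 called. Tail Arntl was low in mice with high dorsal Per2 (r = -0.67, rho -0.68), Per3 (-0.66, rho -0.67), Nr1d2 (-0.62, rho -0.61), Cry2 (-0.49, rho -0.48) and Cry1 (-0.48, rho -0.47). Tail Nr1d2 was high in mice with high dorsal Per3 (0.69, rho 0.72), Per2 (0.61, rho 0.63) and Cry2 (0.56, rho 0.58), and low in those with high dorsal Arntl (-0.53, rho -0.54). All of these 9 had permutation p = 1e-05 and limma adjusted p between 5.16e-08 and 0.0198. Dorsal Per2 was also called with tail Per3 (0.52, rho 0.52) and Per1 (0.50, rho 0.52). Tail Arntl had the largest size of r with dorsal Per2, Arntl and Nr1d2 of all tail genes, and tail Nr1d2 with dorsal Per3 and Cry2.

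Few other tail genes passed. The fit on dorsal Per3 called 15 tail genes (0.0797%), that on Per2 13 (0.0691%), on Cry2 5 (0.0266%), and on Per1 (0.0213%), Cry1 (0.0213%), Arntl (0.0213%) and Nr1d2 (0.0213%) 4 each. All 4 tail genes called on dorsal Arntl and on dorsal Nr1d2 were clock genes: Arntl, Nr1d2, Npas2 and Ciart. Of the 15 called on Per3, 3 were members and 5 other clock genes (Npas2, Ciart, Tef, Bhlhe41 and Wee1). For Per1 the first was Tsc22d3, a glucocorticoid-induced gene (r = 0.61, limma adjusted p = 2.18e-05), ahead of Per1 itself. The fit on dorsal Clock called 0 tail genes (0%), with 1925 at an unadjusted limma p under 0.05, of 18820.

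**Figure D5:**
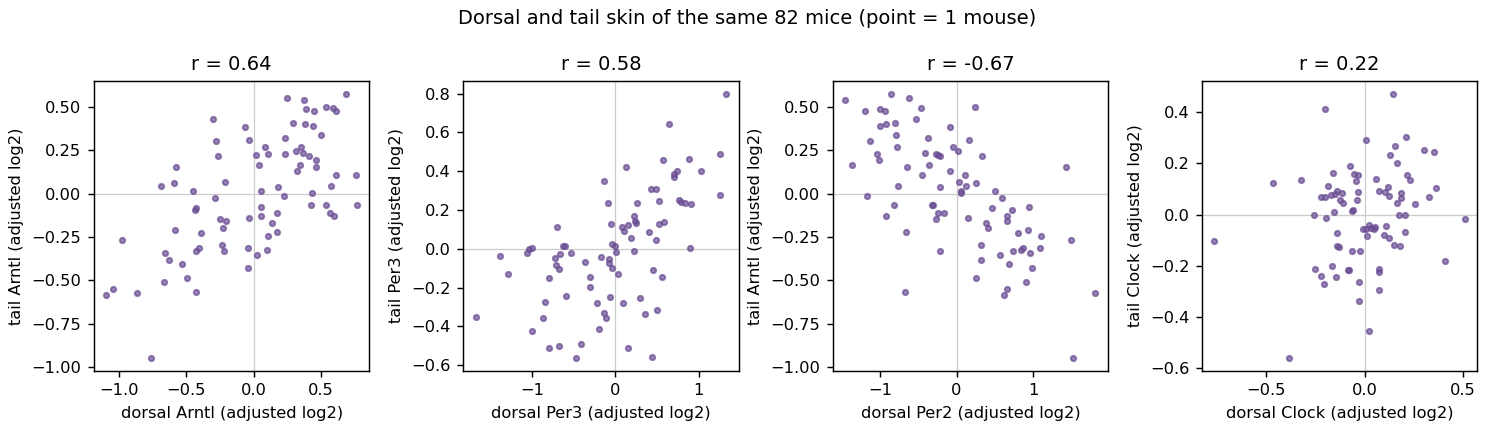
Dorsal level (horizontal axis) against tail level (vertical axis) of the same mouse for Arntl, Per3, dorsal Per2 with tail Arntl, and Clock; both are log2 values adjusted for sex and batch, and each point is 1 of 82 mice. Arntl (r = 0.64) and Per3 (r = 0.58) rise together in both tissues, tail Arntl falls with dorsal Per2 (r = -0.67), and Clock shows little relation (r = 0.22).

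With each sex taken alone the own-gene relations of 4 genes kept their size but lost their call: in 39 females and 43 males r was 0.62 and 0.62 for Arntl, 0.64 and 0.53 for Nr1d2, 0.56 and 0.58 for Per3 and 0.54 and 0.49 for Per2, with limma adjusted p between 0.0727 and 0.684. Per1 had r = 0.71 in males, which was called (limma adjusted p = 0.00113), and 0.15 in females (limma adjusted p = 0.9998); the difference between the sexes was not tested. Over all 96 mice, with the hair cycle state as a covariate, the same number of genes, 5, was called, and so it was in the 72 mice of dorsal batch 1 and tail batch 4.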

How the data were processed

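Expression was measured on gene arrays from 1 µg of total RNA. The values are log2 expression values that the authors made with RMA, per the submitters' processing notes; the RMA version and later steps, if any, are not given in these sources. Of 35556 probe sets, 21218 named 1 gene (platform annotation), and where a gene had several the brightest on average was used, leaving 18820 genes, with no filter on low values. Differences and slopes were fitted on all genes with limma 3.58.1 in R 4.3.3 (lmFit, eBayes), with Benjamini-Hochberg adjusted p-values and a threshold of 0.05. Sex was a covariate and, within a tissue, batch; anagen and non-anagen skin were compared with both. Permutation p-values were two-sided, from 100000 resamples that took the mice as exchangeable (Python 3.11.15, numpy 2.4.6, pandas 2.3.3, scipy 1.17.1). Figures used matplotlib 3.10.9. The fits were tested on simulated data. Members, lists and tests were chosen with earlier results of these data known. Named genes were the members, the other clock genes, the glucocorticoid and immediate early lists and, per member and tissue, the 3 most similar genes; Bhlhe40 and the tail genes called on a dorsal gene were named after their values were seen. The mouse number, which pairs the tissues, was checked: a tail array's deviations correlated with those of its own mouse's dorsal array at a median of 0.14, against 4.30e-04 for other mice, and 13 of 82 tails correlated best with their own.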

Additional observations from a re-analysis of the deposited data

Results flagged for a closer look

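The contrast between tissues of the female minus male difference in Per3 was flagged because the difference itself passed its test (limma, log2 -0.555): females exceeded males by 0.56 in dorsal skin and by 7.44e-04 in tail skin. The slope of Nr1d2 on Per2 was flagged for the same reason, being lower in tail than in dorsal skin by 0.22 (-0.216). The cause of either was not tested, nor was the part of tail mice 1000 to 1007 in the slope.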

How the results depend on the processing

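Over the alternatives run, the counts of genes called between tail and dorsal skin stayed within 1.5 times their value. Mouse as a random block (replicate block, pairing tissues by mouse) left 7 genes called in tail against non-anagen dorsal skin, and the fit within mice also 7; against anagen skin both left 7, and for slopes the block left 1 pair; it raised the count for the sex contrast between tissues from 1 to 2, as did batches 1 and 4 alone (2) and testing only genes above the median of gene means (2). Without the 5 arrays least like their group 0 genes were called for anagen by limma (0 at an unadjusted p under 0.05), and leaving out each anagen array in turn, chosen after seeing the data, gave 0 to 2. For sex in tail skin the count was 1 with arrays shifted to the same median and 1 among genes above the median. Males alone gave 15 dorsal pairs and 7 tail pairs, and the count between tissues fell to 0 in females (limma; 5 at an unadjusted p under 0.05) and 1 in males; these settings hold fewer mice. Differences that changed sign were: shifted to the same median, Per1 tail minus dorsal (-0.0030), Per3 sex in tail (-0.0037) and the Clock sex contrast (0.0096); quantile normalized, Per1 tail minus dorsal (-0.075) and Nr1d2 tail minus anagen (-0.038); mean of probe sets, Nr1d2 tail minus anagen (-0.069) and the Nr1d2 sex contrast (0.0041); without the 5 arrays, Nr1d2 tail minus anagen (-0.0080), Per1 anagen (0.042) and Cry1 anagen (-0.024); with the inner root sheath covariate, Nr1d2 tail minus dorsal (0.24); in males alone, the Clock r between tissues (-0.053). The cause was not tested. The shift to the same median moved the median of all genes to -0.14 for tail against non-anagen and to -0.13 against anagen skin, and the split of all calls from 8222 higher and 8167 lower to 6365 and 10331, and from 7308 and 6561 to 5500 and 8946. It moved the split for sex from 1165 and 1149 to 570 and 1803 in dorsal skin, from 309 and 225 to 305 and 399 in tail skin, and for the sex contrast from 839 and 872 to 1121 and 481 (1136 and 753 quantile normalized). Signal over background was not given, so no probe set was left out as dim.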

Other observations

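The probe set annotated to both Dbp and Sphk2 (10553092) had an r of 0.82 with Per3, 0.80 with Nr1d2, 0.74 with Per2 and -0.63 with Arntl over the 85 non-anagen dorsal arrays, and of 0.65, 0.86, 0.18 and -0.69 over the 97 tail arrays. Which of its genes it read was not tested. The probe sets annotated to both Nr1d1 and Thra had an r with Nr1d2 of 0.091 (10381006) and 0.47 (10390691) in dorsal skin and 0.091 and 0.18 in tail skin. These values are descriptions without a test, adjusted for sex and batch.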
